A study of Mus musculus with 8 samples.

Results

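The baseline transcriptome of mouse late morulae was described from the 2 control libraries of a series of 8 libraries of polyadenylated RNA. Control embryos had received non-specific small interfering RNA (siRNA) as zygotes and were collected as late morulae 78 h after fertilization. The other 6 libraries, 2 per group, came from embryos of the same age injected as zygotes with siRNA against Rbbp4, against Rbbp7 or against both. Both genes encode histone-binding WD-repeat proteins that sit in several chromatin complexes. All 8 libraries therefore carry the injection itself, and no uninjected embryos were analysed here. The labels give neither the strain nor the number of embryos per library, and no label ties the replicates of a group to separate pools, so the spread between replicates may be technical. In such bulk libraries fewer cells of a type and less RNA per cell cannot be told apart.

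The late morula is the stage just before the blastocyst cavity opens. Outer cells polarise, seal their junctions and start the trophectoderm programme that leads to the placenta, whereas inner cells keep the pluripotency programme and later divide into epiblast and primitive endoderm. Many chromatin regulators exist as paralogs that can fill the same place in a complex, so the proportion of each paralog describes which version of a complex the RNA could supply.

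Levels are given in TPM, the usual length-corrected share of transcripts, computed from the deposited DESeq2-normalized abundances and the exon length of each gene in the GENCODE M21 annotation of GRCm38. The deposited values summed to 12011829 in control replicate 1 and 11712105 in replicate 2, within the range of 11334107 to 12011829 over all 8 libraries. A rough depth from the spacing of low values was 9460000 reads in replicate 1 and 11700000 in replicate 2. The mitochondrial genes held 19.5% of TPM in replicate 1 and 13.2% in replicate 2, against 13.4% to 16.9% in the knockdown libraries, so nuclear TPM values of replicate 1 are lowered by that difference. A gene was called detected where it reached a TPM of 1 in both control libraries. Of 18991 genes with an exon length, 11265 were detected, 6862 reached a TPM of 10 in both libraries, 1404 reached 100 and 109 reached 1000. Detected genes included 10736 of the 16631 protein-coding genes and 525 of the 2331 annotated pseudogenes. The table held 10 long intergenic non-coding RNA genes, so that class is hardly represented.

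The label of late morula was compared with marker genes of the cells such a sample could hold. Of the trophectoderm list 23 of 25 tabulated genes were detected, and of the inner cell mass and pluripotency list 22 of 24. Lists of cells from outside the embryo were mostly below a TPM of 1. Of 13 tabulated cumulus and granulosa genes 4 were detected, with summed TPM of 35.3 in replicate 1 and 41.2 in replicate 2. Those with the highest level were the steroid dehydrogenase gene Hsd17b1 at 21.4 and 22.7 TPM and the receptor gene Amhr2 at 7.73 and 11.1 TPM, whereas the inhibin subunit gene Inha and the steroid side-chain cleavage enzyme gene Cyp11a1 were listed at 0 in both libraries. Of 10 sperm genes 2 were detected and of 11 blood genes 1, the myeloid transcription factor Spi1 at 9.67 TPM in replicate 1 and 23.5 TPM in replicate 2. The macrophage receptor gene Csf1r and the erythroid enzyme gene Alas2 were listed at 0 in both. Of 14 fibroblast, endothelial and genital tract genes 2 were detected, led by the adhesion molecule Pecam1 at 9.15 and 12.3 TPM.

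**Figure D1:**
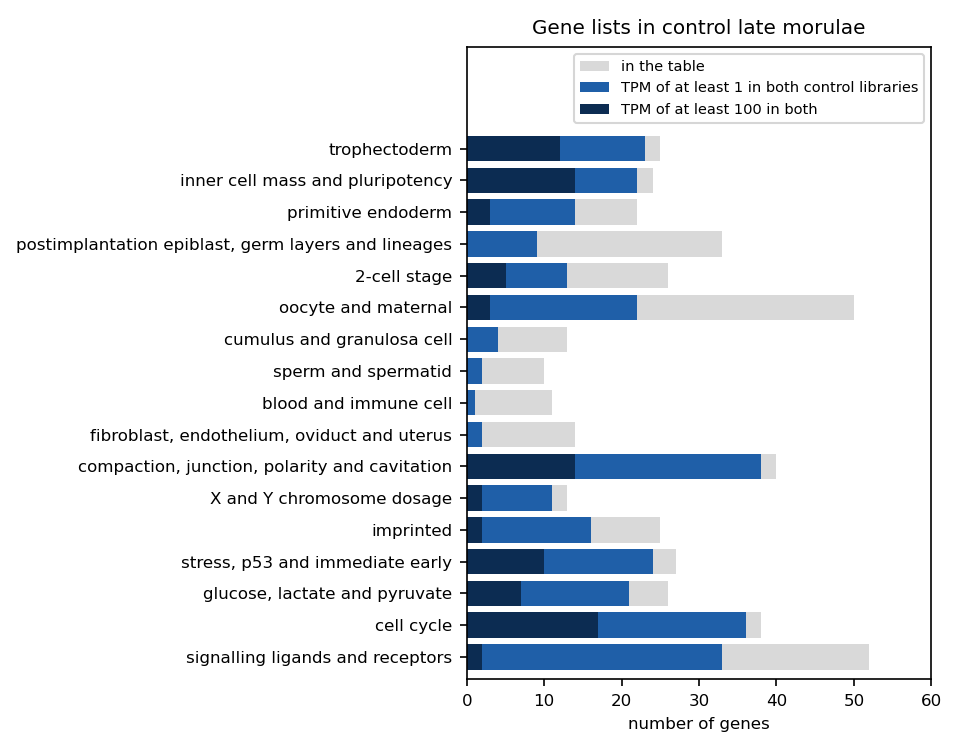
Number of genes of each list in the deposited table (grey), with a TPM of at least 1 in both control libraries (blue) and with a TPM of at least 100 in both (dark blue). Trophectoderm, pluripotency, junction and cell cycle lists were nearly filled, with 23 of 25, 22 of 24, 38 of 40 and 36 of 38 genes detected, whereas 9 of 33 postimplantation genes and 1 of 11 blood genes were.

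The most abundant RNAs of the control morulae were mitochondrial transcripts, cytosolic chaperones, translation factors, actins and ribosomal proteins. Of the 13 mitochondrial protein-coding genes 9 filled ranks 1 to 9 by mean TPM. The highest mean was that of mt-Atp6, a subunit of ATP synthase, at 29551 TPM in replicate 1 and 15338 TPM in replicate 2. mt-Nd1, a subunit of complex I, followed at 23483 and 18628 TPM. Their order is not resolved, since in replicate 2 mt-Nd1 and mt-Co1 (15733 TPM) were above mt-Atp6. Among nuclear genes Ptma (chr1:86526726-86530712), which encodes the small acidic protein prothymosin alpha, came first at 7738 TPM in replicate 1 and 8274 TPM in replicate 2. The cytosolic chaperone gene Hsp90ab1 had 7775 and 8135 TPM, and its paralog Hsp90aa1 had 6895 and 8487 TPM. The libraries of these 3 genes overlapped, so their order is not resolved. Eef1a1, which delivers aminoacyl-tRNA to the ribosome, had 6499 TPM in replicate 1 and 7052 TPM in replicate 2. Rplp1, a protein of the ribosomal stalk, had 5333 and 6788 TPM.

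Below these genes the next ranks lay close together. Psap, the precursor of the lysosomal saposins, had 4402 TPM in replicate 1 and 5419 TPM in replicate 2. The constitutive chaperone gene Hspa8 had 5240 and 4236 TPM, and the cytoplasmic actin genes Actb and Actg1 had 4083 and 5261 TPM and 4177 and 5060 TPM. Calcoco2, an autophagy receptor gene, had 4560 and 4779 TPM, and the alkaline phosphatase gene Alppl2 had 5249 and 4032 TPM. Further members of the leading 20 were the ferritin light chain gene Ftl1 (2814 and 3782 TPM), the nucleolar phosphoprotein gene Npm1 (3583 and 2970 TPM), the ribosomal protein gene Rps15 (3184 and 3354 TPM) and the elongation factor gene Eef2 (2822 and 3493 TPM). None of the 20 differed 2-fold between the libraries, beside 270 of 8560 genes (3.15%) with a mean deposited value of at least 100. In deposited value 10 of 20 were higher in replicate 1.

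Several leading entries cannot be separated from gene copies. Of the 20 leading nuclear genes 11 had at least 1 annotated copy with 95% identity over 50% of the longest transcript. Eef1a1 had 7 such copies, Actg1 and Ftl1 had 5 each, Hsp90aa1 had 2 and Ptma had 1, so their levels are uncertain wherever the counting split or dropped shared reads. Rps12-ps3, at 4575 TPM in replicate 1 and 4289 TPM in replicate 2, had 22 copies, and the pseudogenes Gm15500 (3421 and 3426 TPM) and Gm10275 (2878 and 3345 TPM) had 5 and 7. The predicted gene Gm20594 had 4487 and 4120 TPM and no copy by that measure. The mitochondrial gene mt-Atp6 had 1 copy. Of the 100 leading nuclear genes 21 were annotated pseudogenes and 28 were ribosomal protein genes. The 100 most abundant genes of the whole table held 41.3% of TPM in replicate 1 and 36.5% in replicate 2, and without mitochondrial genes the leading 100 held 28.9% and 28.7%. The libraries thus differed in that share only with the mitochondrial genes included.

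**Figure D2:**
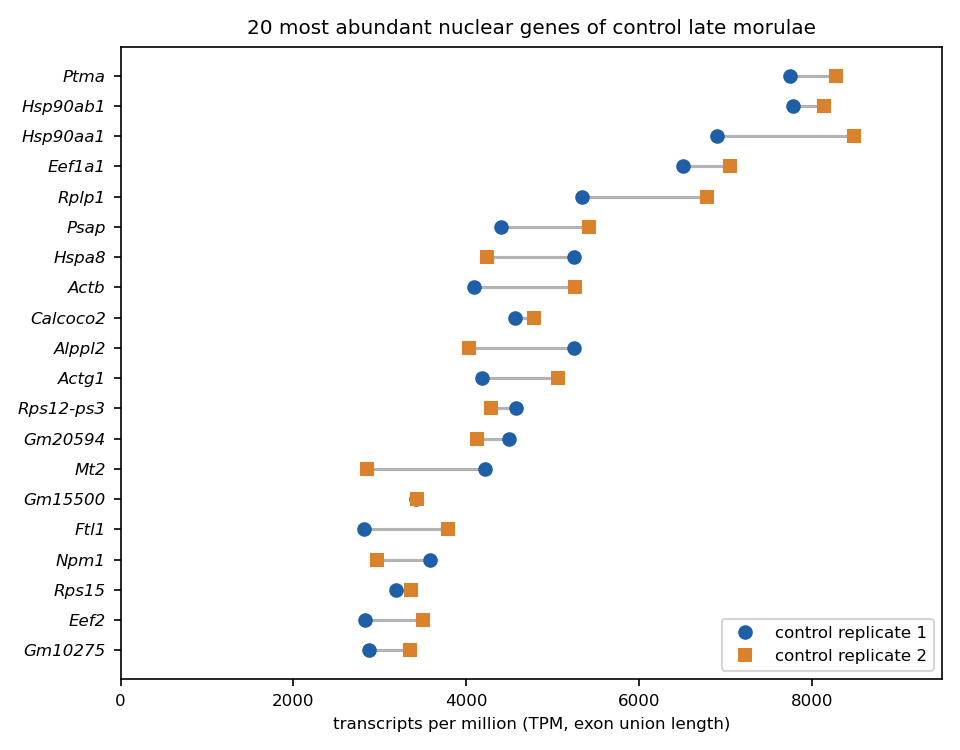
TPM of the 20 most abundant nuclear genes in control replicate 1 (circles) and replicate 2 (squares), with a line joining the libraries of each gene. Ptma, Hsp90ab1, Hsp90aa1 and Eef1a1 lay above Rplp1 in mean TPM, and most of the other genes overlapped with their neighbours.

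Stress and survival genes were sampled with a list of 27, of which 24 were detected. The metallothioneins, small cysteine-rich proteins that bind zinc and copper, were among the most abundant transcripts of the embryo. Mt2 had 4213 TPM in replicate 1 and 2853 TPM in replicate 2, and Mt1 had 1878 and 1560 TPM. Both were higher in replicate 1, and the summed TPM of the whole stress list was 28010 in replicate 1 and 27546 in replicate 2, against 25200 to 27931 in the knockdown libraries. The genes lie next to each other on chromosome 8. Their promoters are shown because metallothionein transcription is classically driven through metal response elements, bound by the zinc-sensing factor MTF1. RefSeq windows on GRCm38.p6 run from 250 bases before to 50 after the annotated start, both on the plus strand, at chr8:94172368-94172667 for Mt2 and chr8:94178839-94179138 for Mt1. Capitals mark matches to the element core, TGCACNC or TGCGCNC, on either strand.
Mt2: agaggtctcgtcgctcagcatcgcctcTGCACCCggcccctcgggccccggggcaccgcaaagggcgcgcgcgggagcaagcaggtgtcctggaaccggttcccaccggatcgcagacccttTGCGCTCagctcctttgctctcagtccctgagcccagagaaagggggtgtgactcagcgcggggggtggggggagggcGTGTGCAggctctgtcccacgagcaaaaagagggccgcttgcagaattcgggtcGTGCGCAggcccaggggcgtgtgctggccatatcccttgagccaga
Mt1: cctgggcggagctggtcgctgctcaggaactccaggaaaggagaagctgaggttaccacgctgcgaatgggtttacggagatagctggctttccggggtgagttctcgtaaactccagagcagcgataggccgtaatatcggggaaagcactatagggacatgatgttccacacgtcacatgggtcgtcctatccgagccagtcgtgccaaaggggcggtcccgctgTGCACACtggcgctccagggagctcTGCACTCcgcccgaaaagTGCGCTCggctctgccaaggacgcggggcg
The Mt2 window held 4 matches and the Mt1 window 3. At least 1 match stood in 25.7% of the 32851 RefSeq windows of that length and at least 3 in 1.97%. A match of letters describes the sequence and shows no binding.

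Hspa1a, Hspa1b and the immediate early genes Fos, Egr1 and Fosb were low, whereas some other stress genes were not. The heat-inducible chaperone genes Hspa1b and Hspa1a had 19.8 and 19.9 TPM and 6.18 and 6.56 TPM in replicates 1 and 2. Each has 1 near-identical annotated copy, so their levels are uncertain. The immediate early genes Fos (3.82 and 4.14 TPM) and Egr1 (listed at 0 in replicate 1 and 0.288 TPM in replicate 2) were near the detection limit, and Fosb was listed at 0 in both. The p53 target gene Cdkn1a, a cell cycle inhibitor, had 276 TPM in replicate 1 and 302 TPM in replicate 2, above the p53 gene Trp53 itself at 77.6 and 82.0 TPM. Hspa5, the chaperone of the endoplasmic reticulum, had 343 and 454 TPM. Hmox1, a haem-degrading enzyme gene, had 181 TPM in replicate 1 and 90.8 TPM in replicate 2.

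Transcription factors of the first lineages were then placed among all genes by mean TPM. Pluripotency factors took the highest ranks, trophectoderm factors followed within the same range, and of the primitive endoderm factors Gata6 alone stood high. Of 34 factors 11 ranked within the first 1000 of the table, 22 within the first 5000, and 27 were detected. The median rank was 1135 for 15 pluripotency factors, 2525 for 12 trophectoderm factors and 13270 for 7 primitive endoderm factors. The trophectoderm median lay between Hand1 at rank 1922 and Esrrb, which was listed with trophectoderm, at rank 3128, so it depends on the choice of members. Single libraries gave 10 factors within the first 1000 in replicate 1 and 11 in replicate 2.

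Pou5f1 (chr17:35506018-35510772), the POU factor OCT4 of pluripotent cells, had the highest TPM of the factors, 1344 in replicate 1 and 1754 in replicate 2, rank 74 of the table. Nanog (chr6:122707489-122714633), a homeobox factor of the epiblast, followed at 683 and 685 TPM, rank 192. Tfcp2l1, a factor of naive pluripotency, had 422 and 450 TPM. In TPM the libraries of these 3 factors overlapped neither with each other nor with those of any lower factor. The order depends on the length correction, since in deposited value Tfcp2l1, with a long transcript, led at rank 47 with 17433 and 17472, and Pou5f1 followed at rank 59 with 13210 and 16243. Sox2, which partners OCT4 on DNA, ranked far lower at 15.1 TPM in replicate 1 and 44.3 TPM in replicate 2. Its replicates differed more than 2-fold, and its rank was 6071 in replicate 1 and 3314 in replicate 2.

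The proximal promoter of Nanog is shown because it holds a well-known octamer site for OCT4 beside a SOX site. The first of 2 RefSeq windows for the gene is chr6:122707239-122707538 on GRCm38.p6, plus strand, and capitals mark the octamer core ATGCAAA read on the opposite strand.
Nanog: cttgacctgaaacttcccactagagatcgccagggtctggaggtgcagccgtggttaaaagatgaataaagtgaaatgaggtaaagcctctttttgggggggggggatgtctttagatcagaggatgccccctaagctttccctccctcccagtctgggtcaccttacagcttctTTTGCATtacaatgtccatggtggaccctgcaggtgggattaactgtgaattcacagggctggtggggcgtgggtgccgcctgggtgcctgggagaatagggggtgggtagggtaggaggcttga
It held 1 match, and 4.63% of the 32851 windows held at least 1. Both Pou5f1 and Nanog were at high TPM in the control libraries, and the data hold no measure of binding.

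Below Tfcp2l1 the order was mostly unresolved, since 22 of the 33 neighbouring pairs had overlapping libraries and each factor from Klf5 down to Tead4 overlapped with the next. Klf5, a Krüppel-like factor needed for trophectoderm, had 257 TPM in replicate 1 and 273 TPM in replicate 2. Cdx2 (chr5:147300805-147307270), the homeobox factor of trophectoderm, had 179 and 308 TPM. Gata6 (chr18:11052064-11085635), the GATA factor of primitive endoderm, had 211 and 233 TPM. Tfap2c, which acts with TEAD4 in trophectoderm, had 181 and 224 TPM, Gata3 had 149 and 187 TPM, and Tead4 itself had 121 and 123 TPM. Pluripotency factors in the same range were Tbx3 (225 and 235 TPM), Zfp42 (139 and 261 TPM), Sall4 (145 and 166 TPM), Nr5a2 (156 and 124 TPM) and Sox15 (138 and 130 TPM). Klf2 and Klf4 had 114 and 105 TPM and 86.8 and 105 TPM.

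Most factors of later trophoblast and endoderm stages were low, with the exception of Hand1. Hand1, which acts in trophoblast giant cells, had 82.7 TPM in replicate 1 and 79.2 TPM in replicate 2. Eomes, a T-box factor of the trophectoderm lineage, had 12.3 TPM in both libraries. Gata4, which acts after Gata6 in primitive endoderm, had 3.96 TPM in replicate 1 and 3.67 TPM in replicate 2. Sox17 had 0.482 and 0.522 TPM, Sox7 was listed at 0 in replicate 1 and had 0.590 TPM in replicate 2, and Foxa2 was listed at 0 in both. Elf5, a factor of trophoblast stem cells, had 0.789 and 0.375 TPM, and Gata2 had 0.0558 and 0.560 TPM. Among the 31 factors with a mean deposited value of at least 10, 2 were 2-fold or more higher in replicate 1 and 2 were 2-fold or more lower, Sox2 among the lower ones. Of all 12399 genes of that level 5.42% were higher and 5.69% lower by that measure, so these counts do not set the factors apart.

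**Figure D3:**
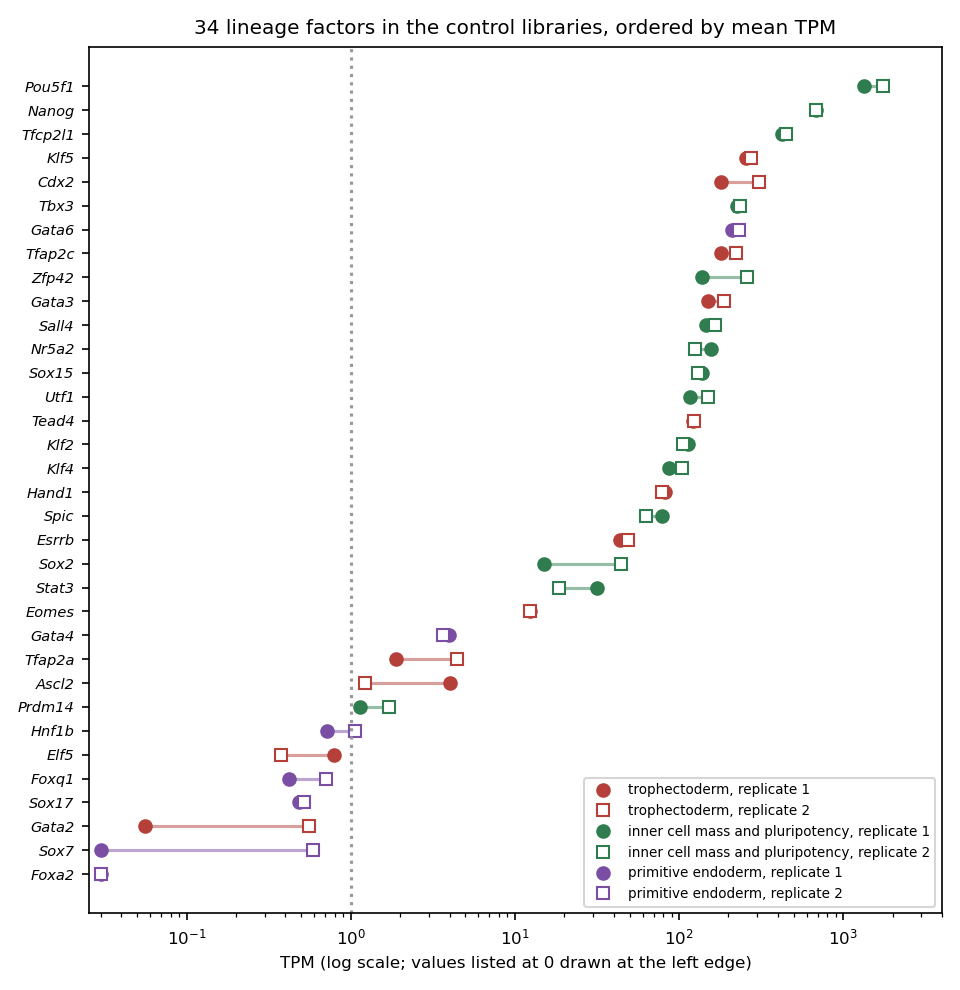
TPM on a log axis of 34 lineage factors in control replicate 1 (filled circles) and replicate 2 (open squares), coloured by list, with the dotted line at a TPM of 1. Pou5f1, Nanog and Tfcp2l1 stood apart at the top, Klf5 to Tead4 overlapped in sequence, and most primitive endoderm factors lay below the line.

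Of the trophectoderm list 12 genes reached a TPM of 100 in both libraries. Fabp3, a fatty acid-binding protein gene, had 1292 TPM in replicate 1 and 1346 TPM in replicate 2, and the simple-epithelium keratins Krt8 and Krt18 had 554 and 861 TPM and 525 and 695 TPM. The related keratin Krt7 had 8.13 and 7.88 TPM. Of 40 junction, polarity and cavitation genes 38 were detected and 14 reached a TPM of 100 in both. The tight-junction gene Cldn4 led with 966 and 1361 TPM, and the water channel gene Aqp3 had 736 and 844 TPM. Cdh1, the E-cadherin that drives compaction, had 346 TPM in replicate 1 and 376 TPM in replicate 2, and its partner Ctnnb1 had 204 and 230 TPM. Aqp8, another water channel gene of the list, was listed at 0 in both. Of the HIPPO pathway, which reads cell position in the morula, Yap1 had 63.0 and 82.1 TPM, Nf2 had 69.8 and 69.5 TPM and Amot had 66.9 and 63.6 TPM. The kinase gene Lats2 had 25.5 and 28.3 TPM and its paralog Lats1 had 9.31 and 9.14 TPM, without overlap between them.

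Of 52 listed signalling ligands and receptors 33 were detected, beside 11265 of 18991 genes over the whole table, and 2 were above a TPM of 100 in both libraries. Those 2 were Igf2r, the clearance receptor for IGF2, at 230 TPM in replicate 1 and 231 TPM in replicate 2, and Erbb3, a neuregulin receptor, at 107 and 125 TPM. The ligand gene Fgf4, which directs inner cells toward primitive endoderm, had 12.7 and 11.4 TPM. Its receptor genes Fgfr2 and Fgfr1 had 25.9 and 22.3 TPM and 15.8 and 20.2 TPM. The cytokine gene Lif had 7.68 and 9.72 TPM, whereas its receptor genes Lifr (0.349 and 0.0653 TPM) and Il6st (0.714 and 0.863 TPM) were below detection. The growth factor gene Pdgfa had 66.3 and 83.9 TPM, against 3.67 and 8.50 TPM for its receptor gene Pdgfra.

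Paralogs outside chromatin also differed widely in level. Among the D-type cyclins, which open the cell cycle, Ccnd3 had 59.2 TPM in replicate 1 and 102 TPM in replicate 2, Ccnd1 had 9.06 and 4.76 TPM, and Ccnd2 had 0.217 and 0.0518 TPM. Of the cell cycle list 36 of 38 genes were detected, led by the mitotic activator Cdc20 at 441 and 547 TPM. Among glucose transporters Slc2a3 had 333 and 310 TPM, above Slc2a1 at 45.7 and 78.9 TPM and Slc2a4 at 0.339 and 1.74 TPM. Lactate dehydrogenase genes were at 44.7 and 28.8 TPM for Ldha and 2.95 and 6.51 TPM for Ldhb. The Y-linked genes Ddx3y (29.6 and 30.1 TPM) and Eif2s3y (18 and 34.7 TPM) were detected in both libraries. Of 25 imprinted genes 16 were detected, near the share over the whole table of 11265 of 18991. Igf2r and Snrpn (220 and 233 TPM) were the 2 imprinted genes above 100 TPM in both.

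The NuRD complex, which joins histone deacetylation to nucleosome remodelling, was supplied mainly by 1 paralog in 4 of its 6 places. Rbbp7 (chrX) had 660 TPM in replicate 1 and 601 TPM in replicate 2, and Rbbp4 (chr4) had 139 and 131 TPM. Rbbp7 thus held 82.4% ± 0.361 of their summed TPM (SD, n = 2), with a ratio of 4.76 in replicate 1 and 4.60 in replicate 2. That ratio depends on length, since Rbbp7 held 76.4% with the longest transcript and 60.9% of the deposited values with no length correction. Mbd3, the subunit in place of the methyl-DNA binder Mbd2, held 92.1% ± 0.746, and the remodelling ATPase gene Chd4 held 93.9% ± 2.38 over Chd3 and Chd5. Gatad2a held 98.8% ± 0.507 over Gatad2b. The deacetylase genes were shared more evenly, with Hdac1 at 247 TPM in replicate 1 and 280 TPM in replicate 2 and Hdac2 at 152 and 133 TPM. Hdac1 had 2 near-identical annotated copies, so its part is uncertain. Mta2 (178 and 170 TPM) and Mta3 (162 and 171 TPM) did not differ beyond the libraries and changed order between them, and Mta1 was low at 12.1 and 18 TPM.

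Summed over paralogs, the places of NuRD differed in RNA level. Rbbp4 and Rbbp7 together had 799 TPM in replicate 1 and 732 TPM in replicate 2. The deacetylase genes together had 400 and 414 TPM and the Mta genes 352 and 359 TPM. Mbd2 with Mbd3 had 134 and 165 TPM, the Chd genes 116 and 141 TPM and the Gatad2 genes 84.5 and 75.5 TPM. In TPM the histone-binding place was thus the most abundant and the Gatad2 place the least in both libraries. The lowest place depends on length. In deposited value Gatad2a alone, at 2032 and 1723, exceeded Mbd3 at 1080 and 1237 together with Mbd2 at 140 and 185. The proteins RBBP4 and RBBP7 are shared with PRC2, SIN3 and other complexes, and protein was not measured.

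In PRC2, which methylates lysine 27 of histone H3, the catalytic gene Ezh2 had 73.1 TPM in replicate 1 and 74.0 TPM in replicate 2 and its paralog Ezh1 had 13.7 and 16.2 TPM. The core subunit Suz12 had 420 and 369 TPM and Eed had 99.1 and 111 TPM. In TPM the summed catalytic genes, at 86.8 and 90.2, were thus the lowest of the core. That order depends on length, since in deposited value Ezh2 alone, at 2135 and 2035, exceeded Eed at 1659 and 1757. Among accessory subunits Mtf2 held 96.2% ± 1.12 over Phf1 and Phf19. Jarid2 and Aebp2, which are not paralogs, had 203 and 242 TPM and 123 and 111 TPM. In PRC1, which ubiquitinates histone H2A, the catalytic gene Rnf2 had 69.1 and 65.0 TPM and Ring1 had 21 and 30.3 TPM. The chromodomain gene Cbx7 was low, at 11.8 and 17.9 TPM. The 6 Pcgf genes together had 130 and 129 TPM, and none held a majority. Bmi1 was first at 30.1% ± 1.63, but Pcgf1 was with the longest transcript, at 27.1%, and Pcgf3 with no length correction, at 31.5%. Rybp, which marks the non-canonical forms, had 109 and 92.6 TPM against 15.9 and 15.7 TPM for its paralog Yaf2.

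In the SWI/SNF remodellers the ATPase gene Smarca4 had 126 TPM in replicate 1 and 120 TPM in replicate 2 and held 96.8% ± 1.83 against Smarca2. Arid1a held 84.1% ± 0.869 against Arid1b, Smarcd2 held 77.7% ± 1.36 over its 2 paralogs, and Ss18 held 92.4% ± 0.145 against Ss18l1. In the ISWI family Smarca5 had 282 and 237 TPM, and Smarca1 was listed at 0 in both libraries. Smarca5 had 4 near-identical annotated copies. The demethylase Kdm1a of the CoREST complex, which removes methyl groups from histone H3, had 70.1 and 77.5 TPM. Its paralog Kdm1b had 15.9 and 17.2 TPM.

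In SIN3, another deacetylase complex, the scaffold genes were shared, with Sin3a at 42.5 TPM in replicate 1 and 37.8 TPM in replicate 2 and Sin3b at 26.4 and 26.2 TPM. The leading scaffold changed to Sin3b at 53.1% with the longest transcript. Of the subunit paralogs Sap30l had 162 and 155 TPM against 63.3 and 64.3 TPM for Sap30. In the COMPASS methylases, which act on lysine 4 of histone H3, Kmt2b held 85% ± 0.746 against Kmt2a. In TPM the shared subunit Wdr5, at 310 and 261, was far above any methylase gene of the group. Of those Kmt2c had the highest mean, at 52.3 and 50 TPM. That gap depends on length, since in deposited value Wdr5 had 4870 and 3865 and Kmt2c had 4636 and 4180. The lysine 27 demethylase Kdm6b had 92.8 and 98.7 TPM, against 26.0 and 20.9 TPM for the X-linked Kdm6a.

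Genes of repressive histone and DNA methylation followed the same pattern of partial dominance. Ehmt2 held 86.1% ± 0.537 against Ehmt1, and Trim28, the corepressor that joins zinc-finger proteins to histone methylases, had 596 TPM in replicate 1 and 584 TPM in replicate 2. Dnmt3b (54.2 and 69.3 TPM) and its cofactor Dnmt3l (53 and 56.6 TPM) exceeded Dnmt3a (19.3 and 29.7 TPM), although Dnmt3a led at 56.0% with no length correction. Maintenance genes were Dnmt1 at 42.9 and 43.0 TPM and its recruiter Uhrf1 at 85.1 and 121 TPM. Tet1, a 5-methylcytosine oxidase gene, had 20.7 and 20 TPM, whereas Tet2 had 26.8 TPM in replicate 1 and 10.3 TPM in replicate 2, so the leading Tet gene differed between the libraries.

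RNA for the variant histone H3.3 came from both of its genes, with H3f3b higher in TPM in each library. That order depends on length, since in deposited value H3f3a led in replicate 1, at 7484 against 6557. With no length correction the mean share of H3f3b was 50.4%. H3f3a had 488 TPM in replicate 1 and 405 TPM in replicate 2, and H3f3b had 504 and 561 TPM. Together they had 992 and 966 TPM, the highest mean of the 57 families. The H2A.Z gene H2afz had 525 TPM in replicate 1 and 882 TPM in replicate 2, above H2afv at 86.1 and 111 TPM, and the sum of that pair, 611 and 993 TPM, overlapped with that of the H3.3 genes. The chaperone genes of H3.1 and H3.3 were lower, with Asf1b at 37.0 and 64.8 TPM, Chaf1b at 47.9 and 39.6 TPM, Hira at 43.4 and 37.1 TPM and Daxx at 27.6 and 31.4 TPM. Of the MYB genes Mybl2, which activates mitotic genes with the MuvB complex, had 184 and 220 TPM against 19.3 and 8.03 TPM for Mybl1. In cohesin, the ring that holds sister chromatids, somatic subunits led, with Rad21 at 96.3% ± 0.208 over Rec8 and Rad21l and Smc1a at 95.8% ± 0.594 against Smc1b.

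Over all 57 families with at least 2 members in the table, 1 member held 80% or more in 29, and the leading member was the same in both control libraries in 54. The exceptions were the Mta, Ing and Tet families. Jarid2 and Aebp2 were counted as a family although they are not paralogs. In 51 of 57 families the leading member was the same in all 8 libraries. The family of the targeted genes was not among these, since Rbbp4 held 83.0% and 83.5% in the Rbbp7 knockdown libraries. The median SD of the leading share was 2.05 percentage points and the largest 13.3, that of the Tet family. The leading member changed in 6 families with the longest transcript and in 10 with no length correction. Of 164 tabulated chromatin genes 158 were detected and 29 reached a TPM of 100 in both libraries. Actl6b, which was also listed, was not analysed here.

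**Figure D4:**
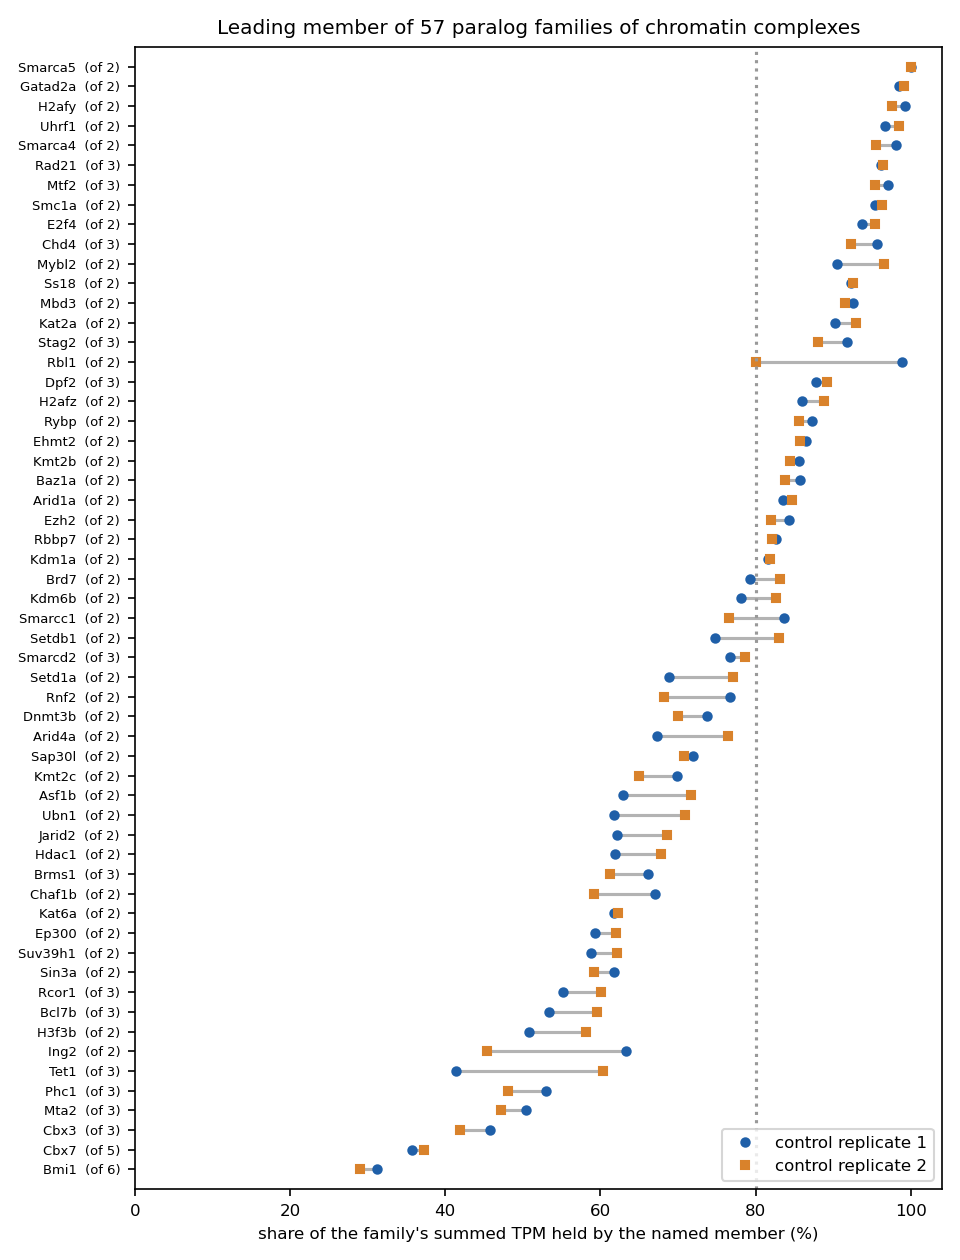
Share of the summed TPM of each of 57 paralog families held by its leading member in control replicate 1 (circles) and replicate 2 (squares), with the dotted line at 80% and the number of members in parentheses. Families at the top, such as Gatad2a and Smarca4, were held by 1 member in both libraries, whereas the shares of Tet1, Rbl1 and Ing2 differed most between the libraries. Jarid2 and Aebp2 were drawn as a family although they are not paralogs.

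Genes of later lineages were largely undetected. Of 33 postimplantation and germ layer genes 9 were detected and 7 were listed at 0 in both libraries, among them the mesoderm factor T and the endoderm product Afp. Members detected were led by Gata1 (30.2 TPM in replicate 1 and 28.0 TPM in replicate 2), an erythroid factor, and Apoa1 (19.3 and 28.6 TPM), an apolipoprotein gene. The globin gene Hba-a1 had 1.76 TPM in replicate 1 and was listed at 0 in replicate 2. Further families were taken by symbol after the values had been seen. Of 34 Hox genes 4 were detected and none reached a TPM of 10, and of 8 Pax genes none was detected. None of 33 clustered protocadherins and none of 26 vomeronasal receptor genes was detected. Of 71 olfactory receptor genes 6 were detected, led by Olfr624 at 33.7 TPM in replicate 1 and 36.7 TPM in replicate 2. Of 39 forkhead genes 21 were detected, and the highest was Foxi3 at 188 and 102 TPM.

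Maternal and cleavage-stage transcripts were mixed. Of 50 oocyte and maternal genes 22 were detected, but 3 reached a TPM of 100 in both libraries. Those were Dppa3, which guards maternal DNA methylation and also stands in the pluripotency list, at 2704 and 2818 TPM, Khdc3 of the subcortical maternal complex at 1233.5 and 1613 TPM, and Khdc1a at 299 and 286 TPM. The egg-coat gene Zp3 had 3.50 and 4.60 TPM. Growth and maturation genes of the oocyte such as Nobox and Btg4 were listed at 0 in both libraries, and Mos was listed at 0 in replicate 1 and had 0.168 TPM in replicate 2. Of 26 genes of the 2-cell stage 13 were detected. The highest were Pramel6 (874 and 896 TPM) and Pramel7 (536 and 521 TPM), while Duxf3, the factor that activates 2-cell genes, was listed at 0 in both.

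Members of the transient 2-cell programme differed between the control libraries. Zscan4f was listed at 0 in replicate 1 and had 12.0 TPM in replicate 2, and Zscan4c was listed at 0 and had 4.71 TPM. Zscan4d, the form known from 2-cell embryos, had 1.13 TPM in replicate 1 and 2.89 TPM in replicate 2. The 5 tabulated Zscan4 genes summed to 1.13 TPM in replicate 1 and 19.9 TPM in replicate 2. Each has 8 near-identical annotated copies, 4 of them tabulated, and reads shared with the others were not analysed here. The deubiquitinase gene Usp17lc had 2.13 TPM in replicate 1 and 18.7 TPM in replicate 2, its neighbour in the list Usp17lb was listed at 0 and had 12.4 TPM, and the homeobox gene Obox3 had 0.821 and 6.03 TPM. Of the 17 genes of that list with a mean deposited value of at least 10, 9 were 2-fold or more lower in replicate 1 and 1 was 2-fold or more higher. Over all 12399 genes of that level 5.69% were lower and 5.42% higher. The Zscan4 genes, Usp17lc and Usp17ld have near-identical annotated copies, so the members of the list are not independent measures. The median log2 difference, replicate 1 minus replicate 2, was -1.10, beside -0.0033 over all genes of that level. The list's summed TPM did not show it, at 1940 in replicate 1 and 1918 in replicate 2, since Pramel6, Pramel7, Obox6, Tmem92 and Sp110 made up most of the sum.

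Beyond that list the control pair had the highest count of genes past 2-fold of the 4 replicate pairs, although its median absolute log2 difference, 0.2818, was about that of the double knockdown pair, 0.2842. Of 12399 genes with a mean of at least 10 in deposited value, 1378 (11.1%) differed 2-fold or more on log2(value + 1), 672 (5.42%) higher in replicate 1 and 706 (5.69%) lower. With 1 library against 1 there is no test. The Rbbp4 knockdown pair had 6.73%, the Rbbp7 knockdown pair 6.97% and the double knockdown pair 10.2%. At a mean of at least 100 the count fell to 270 of 8560 genes (3.15%), against 1.12%, 1.09% and 2.46% in those pairs. The 2 pairs with high counts each hold 1 library of low rough depth, 9460000 reads in control replicate 1 and 9160000 in a double knockdown library, and the part of depth was not tested. Of the chromatin genes with a mean of at least 10, 5 of 162 were 2-fold or more higher in replicate 1 and 4 lower, which included Tet2, Mybl1, Stag3 and Rcor3 as higher and Rbl2, Smarca2 and Chd3 as lower.

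The difference between the control libraries followed base composition. In quintiles by exon GC content, drawn from genes whose mean reached 100, the median log2 difference was 0.15 in the lowest quintile, then 0.07, 0.0021 and -0.08, and -0.15 in the highest. In the lowest quintile 68.4% of genes were higher in replicate 1, and in the highest 32.5%. The Rbbp7 pair ran the other way, with -0.09 in the lowest quintile and 0.13 in the highest, as did the double knockdown pair with -0.10 and 0.17, while the Rbbp4 pair had 0.01 and -0.01. Long genes were also slightly higher in replicate 1, with medians of -0.08 in the shortest quintile and 0.07 in the longest. All 13 mitochondrial genes were higher in replicate 1, with a median log2 difference of 0.63 and a range of 0.29 to 1.03. Of 76 cytosolic ribosomal protein genes 60 were lower in replicate 1, with a median of -0.16. The parts of GC content, gene length and cell state in these differences were not tested. Across the 8560 genes the log2 values of the libraries had a Pearson r of 0.95, a description across genes, which are not independent replicates.

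**Figure D5:**
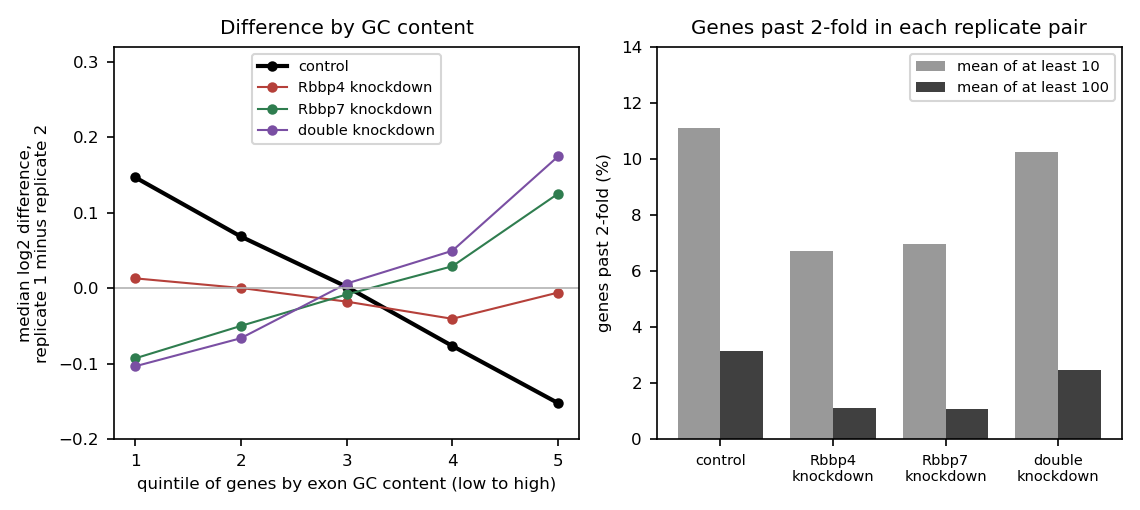
Left, median log2 difference of deposited values, replicate 1 minus replicate 2, in quintiles of genes by exon GC content for the control pair and the 3 knockdown pairs. Right, percentage of genes past 2-fold in each pair at a mean of at least 10 (grey) and 100 (dark). The control line ran from 0.15 in the lowest to -0.15 in the highest quintile, and the control bars, at 11.1% and 3.15%, were the highest of the 4 pairs.

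Many of the largest single differences were switches between 0 and a high value. In the control pair 28 genes were listed at 0 in 1 library and at 100 or more in the other, 19 of them at 0 in replicate 1. The knockdown pairs had 14, 14 and 23 such genes. Ddx41, a helicase gene, had a deposited value of 882 in replicate 1 and was listed at 0 in replicate 2, and of the 6 knockdown libraries 1 was above 0, at 260. Plcd1, a phospholipase C gene, was listed at 0 in replicate 1 and had 510 in replicate 2, with all knockdown libraries between 336 and 632. Sbno2, a transcriptional regulator gene, and D3Ertd254e had 223 and 229 in replicate 1 and were listed at 0 in replicate 2 and in all 6 knockdown libraries. Brca2, Ddx6 and Tsc2, genes of DNA repair, RNA decay and growth control, were listed at 0 in replicate 1 and had 191, 177 and 121 in replicate 2. Such a 0 can be a failed estimate, so no fold is given. The homeobox genes Cphx1, Cphx2 and Cphx3, each with 2 near-identical copies, went in opposite directions. Cphx3 was listed at 0 in replicate 1 and had 813 in replicate 2, whereas Cphx1 had 278 and 10.2 and Cphx2 had 146 in replicate 1 and was listed at 0 in replicate 2. Summed over the 3 genes the value was 424 in replicate 1 and 823 in replicate 2.

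Other genes with large differences were above 0 in both libraries. Picalm, a clathrin assembly gene, had 20.4 in replicate 1 and 278 in replicate 2, and Hemk1, a methyltransferase gene, had 31.4 and 256. Rcor3, the third CoREST scaffold, had 302 in replicate 1 and 28.6 in replicate 2, with the knockdown libraries between 95.2 and 238. The pseudogene Gm10925 had 362 and 2127, and its neighbour Gm29216 on chromosome 1 had 1294 and 100.2. Both have near-identical annotated copies. Of the 20 genes named by size of difference, Gm12918, Gm7332, 1700030C10Rik, Gm10925, Gm29216 and Gm9830 were pseudogenes.

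A total of 2097 genes were listed at 0 in both control libraries. A further 1840 were at 0 in replicate 1 alone, with a median value of 2.04 in replicate 2, and 796 were at 0 in replicate 2 alone, with a median of 3.53 in replicate 1. Genes at 0 in 1 library were thus mostly near the limit of detection in the other. Of the 2097 genes 34 had a mean of at least 10 over the 6 knockdown libraries and 50 were above 0 in all 6. Among those above 0 in some knockdown libraries, Bcl9l, a coactivator of β-catenin, and Rprd2, an RNA polymerase II-associated gene, reached 137 and 150 in 1 library each. Single knockdown libraries were also listed at 0 for such genes, so a 0 in both control libraries does not show that a gene was absent.

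Against the mean of the 3 knockdown groups, limma called 2 of 12565 genes in control libraries (0.0159%), both of them the siRNA targets. Rbbp7 had 8399 and 7205 in control libraries, against 298 and 293 with the Rbbp7 siRNA, 327 and 266 in the double group and 6696 and 6295 in the Rbbp4 knockdown. Its log2 difference was 3.23 ± 0.11 (SE; limma with Benjamini-Hochberg adjustment, adjusted p = 3.87e-06). Rbbp4 had 5300 and 4710 in control libraries, against 402 and 343 with the Rbbp4 siRNA and 348 and 433 in the double group. In the Rbbp7 knockdown it had 4370 and 4467. Its log2 difference was 2.54 ± 0.12 (SE, by limma, adjusted p = 2.83e-05). For both genes the knockdown mean includes a group without the siRNA against that gene, so the difference understates the change in targeted libraries. No gene was called lower in control libraries (0%), and 1425 genes (11.3%) had an unadjusted limma p below 0.05 in either direction. H3f3a differed by 0.08 ± 0.11 and H3f3b by -0.36 ± 0.11 (SE; limma, adjusted p = 0.837 and 0.305). For H3f3b the mean of the knockdown groups also joins unlike groups. Its values were 6557 and 6874 in control libraries and 12632 and 13024 in the double group. They were 7184 and 8728 in the Rbbp4 knockdown and 5671 and 6894 in the Rbbp7 knockdown. Of 24 trophectoderm genes tested none was called, 19 were higher in control libraries, beside 6257 of all 12565, and their median log2 difference was 0.41, beside -0.0013 over all genes tested. Their summed TPM was 5084 and 6259 in control libraries, 5564 and 5177 with the Rbbp4 siRNA alone, and 3686 to 4190 in the 4 libraries with the Rbbp7 siRNA. The smallest adjusted p of that list was 0.0650, by limma. The pluripotency list had 11 of 23 genes higher in control libraries and a median of -0.01. The count rests on single libraries, since 58 genes were called without control replicate 2, 2 of them shared with the full fit, and 6 without Rbbp7 knockdown replicate 1. With 1 common mean for the 6 knockdown libraries in place of 3, no gene was called by limma.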

How the data were processed

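Polyadenylated RNA of 8 libraries from mouse embryos was analysed, 2 control libraries among them, with group and replicate number taken from the sample titles. Per the submitters' processing notes, Trimmomatic, HISAT2, featureCounts, DESeq2 and the build GRCm38 were used. Their versions, settings and strand use were not given in the sources used here. Each deposited value is a normalized signal per Ensembl gene, scaled by the authors with DESeq2 per the table's name, and not a raw count. Of low values 41.9% to 63.7% lay within 0.05 of a multiple of the library's commonest step, so whole reads were not recovered, no count model was fitted and rough depths assume that 1 step is 1 read. The table held 0 columns of other samples.

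TPM was computed here from the deposited signal and the union of exons of GENCODE M21, for 18991 of 19058 genes, and 67 had no exon length. Genes were named where they were among the 20 leading nuclear genes, the 10 largest differences each way between the control libraries at a mean of at least 100, the genes called by limma, or members of lists of lineage, tissue and chromatin genes. Others singled out, such as Brca2, Ddx6, Tsc2, Cphx2, Bcl9l, Rprd2 and families taken by symbol, were chosen after their values were seen. The members and lists were chosen with earlier results of these data known. The comparison with the knockdown groups used limma 3.58.1 in R 4.3.3 on log2(value + 1), with 4 group means, a variance trend, two-sided tests and Benjamini-Hochberg adjustment over 12565 genes with a mean of at least 10, and 6493 genes were left out. A fold on that scale understates the change of low genes. Near-identical copies were sought with blastn, and sequences came from RefSeq.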

Additional observations from a re-analysis of the deposited data

How the results depend on the processing

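Which genes were called against the knockdown groups moved with the design and with single libraries. The count of 2 genes was 2 to 58 when each library was left out in turn and 0 with 1 mean for the 6 knockdown libraries, where the log2 differences of Rbbp7 and Rbbp4 stayed at 3.23 and 2.54 with an adjusted limma p of 0.60. It was 2 or 3 with a pseudocount of 5, other filters and TMM scaling. H3f3a, at 0.08, differed by -0.10 without control replicate 1 and by 0.26 without control replicate 2. The labels do not say whether replicate numbers pair the samples. Deviations of same-numbered libraries correlated at -0.0221 to 0.0510 across genes. That cannot settle the pairing, since the 2 libraries of a group deviate from their mean by equal and opposite amounts. The fit with the replicate number as a block called 2 genes. Genes past 2-fold between the control libraries numbered 270 at a mean of at least 100 and 4421 with no filter, against 1378. The share of the 100 leading genes was 28.8% without mitochondrial genes and 35.4% with the longest transcript, against 38.9%, and 36.5% to 41.3% in single libraries. Detected genes numbered 12243 at a TPM of 0.5, 8459 at 5, 11224 with the longest transcript and 11976 to 12213 in single libraries. Families with 1 member at 80% or more numbered 25 to 29, and ranks of single factors stayed within 1.5 times in all 102 alternatives of longest transcript and single library. With no length correction, an alternative chosen after the data were seen, 20 of 34 did, Tfcp2l1 moving to rank 47, Sox15 to 4629 and Utf1 to 3624, and 10 factors were within the first 1000. Of leading shares, 45 of 114 length alternatives stayed within 1 SD. Depth is known only roughly, so no counting interval is given, and 2 libraries give each SD 1 degree of freedom.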
